A study of Mus musculus with 3 samples.

Results

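The hnRNP and SR splicing factor genes are 31 of the 50507 gene rows in a table of UMI counts, and were picked by name: 20 genes whose symbol is Hnrnp followed by a letter, and 11 whose symbol is Srsf followed by a number. 1 further name that marks a pseudogene was left out. Of the 31 genes, 21 (14 Hnrnp and 7 Srsf) had enough counts to be among the 3013 genes tested, and the other 10 enter only the summed levels. The study asked which chromatin-associated factors hold back or help the start of reprogramming. Primary embryonic fibroblasts of wild-type BL6 mice carried rtTA and a doxycycline-inducible lentivirus (tet-STEMCCA) that encodes Oct4, Klf4, Sox2 and c-Myc, and bulk RNA was read by CEL-Seq2, which counts the 3′ end of each mRNA once per molecular barcode (UMI). The cassette was delivered at about 1 virus per cell, so a bulk library can hold cells that respond to a different extent, and each siRNA was a pool against 1 gene.

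All libraries shared the cassette and the fibroblasts. Day 0 was the point at which the induction medium was added, which brought doxycycline at 2 µg per mL together with a GSK3 inhibitor, an Alk5 inhibitor, ascorbic acid and LIF, so later days differ from Day00 in all of these. The time course held untransfected, re-plated cells on Day00, Day01, Day02, Day03, Day04, Day05 and Day06. Apart from a control without siRNA, the transfected cells received 40 nM siRNA. All transfected cells were re-plated and induced a day later, and were harvested on day 6 of doxycycline. They comprised the non-targeting control (nt), a control without siRNA (Mock) and 33 siRNAs, among them siApex1, siBard1, siBptf, siBrca1, siBrd8, siCbx7, siCdk1, siEny2, siEp300, siHat1, siHdac1, siIrx1, siJarid2, siKmt2d, siKmt2e, siMtf1, siMyc, siNcor1, sip53, siPhf1, siPou5f1, siPrkdc, siPrmt2, siPrmt5, siPrmt7, siSet, siSetdb1, siTdrd3, siTdrd7, siTead2, siWdr5 and siWhsc1l1. Each of the 42 conditions had 3 libraries, 1 in each of 3 sequenced pools (replicates 1, 2 and 3), except Mock with 5 and siMtf1 with 2. The study describes the siRNA libraries as separate transfections, and the sources used here do not say whether the replicates came from separate fibroblast preparations, so p-values measure the spread between these libraries.

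SR proteins (Srsf) bind exonic enhancers through RNA recognition motifs and recruit the splicing machinery through a domain rich in arginine and serine. The hnRNP proteins coat nascent transcripts, and several of them block splice sites or exons that SR proteins would promote, so that the balance of the families shapes exon choice. Many genes of both families control their own mRNA by splicing in an exon with an early stop, and both families also act in mRNA export, stability and translation.

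The 127 libraries analysed held 29656 to 235292 counts, with medians of 64227, 63122 and 127079 in replicates 1, 2 and 3. Counting error was thus in general smallest in replicate 3, and other spread was not compared by replicate. The hnRNP and SR genes took 0.572% of the counts. The counts of the targeted mRNAs gave no clear check of the siRNA labels. Of the 33 targets 23 had fewer counts than expected in the libraries of the matching siRNA and 8 had 0 counts there, but most of these were scarce in all libraries. Summed over the 33 targets the libraries of the matching siRNA held 369 counts where 391 were expected from the remaining siRNA and control libraries, matched by replicate, or 94.3% (95% exact Poisson interval 84.9 to 104%, counting error only). Of the 9 targets that passed the filter, edgeR called 0 lower or higher than nt, and 0 had an unadjusted p under 0.05. Among these were Hat1 with 106 counts where 96.2 were expected and Set with 58 where 71.8 were expected. The other 24 targets were too scarce to check 1 by 1, and for Wdr5 the libraries labelled siWdr5 held 7 counts where 7.69 were expected. The study measured knockdown of Brca1, Bard1 and Wdr5 mRNA by another assay earlier in reprogramming than this harvest. The siRNA names below are the labels of the libraries. Among cell markers, the summed level of 12 fibroblast genes was 9620 CPM (counts scaled to a common total of the tested genes after TMM scaling) on Day00, 3364 on Day03, 2566 on Day06 and 1836 in nt. The 8 epithelial genes were at 22.2 CPM on Day00 and 156 on Day06, and the 9 pluripotency genes at 9.82 and 43.1, so fibroblast transcripts were still the most counted of these lists on Day06.

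Within the SR family Srsf3 had the most counts over all libraries, most of which were transfected, although Srsf2 was above it on Day01 (means of 962 and 835 CPM) and in each Day06 library. Srsf3, which encodes the smallest SR protein and also acts in mRNA export and cleavage site choice, had 14397 counts, or 49.8% of the family over all libraries. Srsf2 (SC35), which binds exonic enhancers in the nucleus, had 4932 counts (17.0%), followed by Srsf7 with 2641 (9.13%), Srsf11 with 2491 (8.61%) and Srsf6 with 2141 (7.40%). Srsf10, an SR protein that acts as a repressor when dephosphorylated, had 1047 counts and Srsf1 (ASF/SF2), the prototype of the family, had 751. Because CEL-Seq2 counts a molecule at 1 end, these counts were set side by side without division by gene length.

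The hnRNP counts were spread over more genes. Hnrnpc, whose protein binds uridine tracts and sorts transcripts by length, led over all libraries with 6034 counts (19.2% of the family), although on Day06 its mean of 565 CPM was below that of Hnrnpab at 649. Hnrnpu, a nuclear scaffold protein, had 3584 (11.4%), Hnrnpab, which binds AU-rich RNA, 3546 (11.3%) and Hnrnph1, which binds runs of guanine, 3124 (9.92%). The next were Hnrnpdl with 2107, Hnrnpa3 with 2065, Hnrnpk with 1982, Hnrnpm with 1875, Hnrnpa0 with 1271, Hnrnpa2b1 with 1159, Hnrnpr with 1079, Hnrnpl with 927, Hnrnpul1 with 520 and Hnrnpd with 503 counts. The 10 genes under the filter were Hnrnpa1 with 350 counts in all libraries, Hnrnpf with 271, Hnrnph2 with 316, Hnrnph3 with 63, Hnrnpll with 461, Hnrnpul2 with 245, Srsf4 with 46, Srsf5 with 397, Srsf9 with 76 and Srsf12 with 10.

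Some of these counts could be split with other loci. Annotated genes with at least 95% identity over at least 100 of the last 400 transcript bases existed for 6 members. Hnrnpa3 had 30, of which 26 were rows of the count table with 3402 counts together, more than the 2065 of Hnrnpa3 itself. Hnrnpc had 1 such gene, Gm12696, with 1739 counts, and Hnrnpa2b1 had Gm5778 with 250, so the levels of Hnrnpa3, Hnrnpc and Hnrnpa2b1 are uncertain. Hnrnpf, Hnrnph2 and Hnrnpk had copies with 115, 56 and 54 counts. Exons on the same strand overlapped for Hnrnpa3, Hnrnpm and Hnrnpul2, and exons of Mettl23 and Mfsd11 overlap Srsf2 on the other strand, as do those of Cox20 for Hnrnpu and Phykpl for Hnrnpab. Whether the counting used strand is not given in the sources used here.

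Srsf3 lies at chr17:29032628-29043373 on the plus strand of GRCm38 (GENCODE vM21), and Srsf7 lies on the minus strand of the same chromosome at chr17:80200080-80207307. Srsf2 is at chr11:116849901-116853094, Hnrnpab at chr11:51600100-51606847, Hnrnpc at chr14:52073377-52104028 and Hnrnpu at chr1:178321108-178337797, all on the minus strand. The 150 bases before the RefSeq start (GRCm38.p6) are shown for Srsf2, Srsf3 and Srsf7, the SR genes whose levels moved most after Day03. They span chr11:116853095-116853244 (minus strand), chr17:29032510-29032659 (plus strand) and chr17:80207306-80207455 (minus strand). Their GC content was 69.3%, 62.7% and 59.3% and they held 21, 15 and 15 CpG.
Srsf2: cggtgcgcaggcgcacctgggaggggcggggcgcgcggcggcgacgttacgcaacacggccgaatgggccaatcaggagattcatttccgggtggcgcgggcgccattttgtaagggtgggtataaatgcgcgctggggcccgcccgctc
Srsf3: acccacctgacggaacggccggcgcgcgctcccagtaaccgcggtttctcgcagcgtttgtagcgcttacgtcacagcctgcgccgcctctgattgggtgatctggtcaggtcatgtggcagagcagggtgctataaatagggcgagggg
Srsf7: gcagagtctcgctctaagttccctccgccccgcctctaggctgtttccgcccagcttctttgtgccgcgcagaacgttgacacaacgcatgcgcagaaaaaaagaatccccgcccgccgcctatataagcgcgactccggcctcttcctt

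Because c-Myc, Oct4, Sox2 and Klf4 were induced, the promoters were searched on both strands for CACGTG (the E-box bound by Myc with Max), ATGCAAAT (the octamer), CATTGTT (a Sox motif) and CCACACCC (a Klf motif), none of which overlaps another. RefSeq windows from 250 bases before to 50 after a start matched 29 members with 41 windows, and Hnrnpll and Hnrnpul2 had none. CACGTG was in 5 of the 41 windows (12.2%) and in 7.15% of all 32851 windows, and the 5 were all among the 27 Hnrnp windows (18.5%) with none of the 14 Srsf windows. The other motifs were in 0 of 41 windows and in 1.74%, 3.78% and 3.56% of all windows. The median window of the members had 68.3% GC and 31 CpG, where all windows had 52.7% and 7. A match is a description of these letters and not a binding site. The 30 bases around each CACGTG (capitals) lie, in the order printed, at chr2:75659229-75659258 (plus), chr5:99978953-99978982 (minus), chr6:117907713-117907742 (plus), chrX:134601182-134601211 (plus) and chr17:33685428-33685457 (minus).
Hnrnpa3: cggatagcacatCACGTGgtgactggcccc
Hnrnpd: gcgctccggagcCACGTGaccgggacgcgc
Hnrnpf: cgagcgggcgctCACGTGgcccgaggcgcc
Hnrnph2: ccgagagttgctCACGTGaccgagatctca
Hnrnpm: gtcgttcggggtCACGTGagcgcgcaggcg

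Over the time course both summed levels were lowest on Day03 and then climbed, the Srsf sum more steeply. The Srsf sum was 2506 ± 229 CPM (mean ± SD, n = 3, as for all means below unless stated) on Day00, 2839 ± 359 on Day01, 2297 ± 548 on Day02 and 1717 ± 242 on Day03. It was 2549 ± 419 on Day04, 3133 ± 701 on Day05 and 3690 ± 815 on Day06. The Hnrnp sum was 3643 ± 51.4 CPM on Day00, 4176 ± 497 on Day01, 3595 ± 260 on Day02, 3131 ± 203 on Day03, 3565 ± 332 on Day04, 3866 ± 373 on Day05 and 4151 ± 225 on Day06. With RLE size factors it was 4341 on Day00, 3637 on Day03 and 4350 on Day06, so the height of Day06 over Day00 was not seen under that scaling. Their ratio, which no scaling of a library can change, was 1.46 ± 0.142 on Day00, 1.84 ± 0.239 on Day03 and 1.15 ± 0.199 on Day06. In single libraries the ratio was 1.61, 1.32 and 1.46 on Day00, 1.72, 1.69 and 2.12 on Day03 and 1.13, 0.964 and 1.36 on Day06 (replicates 1, 2 and 3), so Day06 lay below both Day03 and Day00 in each of the 3 replicates, while the groups Day00 and Day06 overlapped. These sums describe bulk RNA, in which fewer cells of a type and less RNA per cell cannot be told apart. The sum over 10 proliferation genes was 990 CPM on Day00, 491 on Day03 and 1532 on Day06, and the share of mitochondrial counts was 19.7 to 22.6% on Day03 and 16.0 to 16.6% on Day06, and their part in the sums was not tested.

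**Figure D1:**
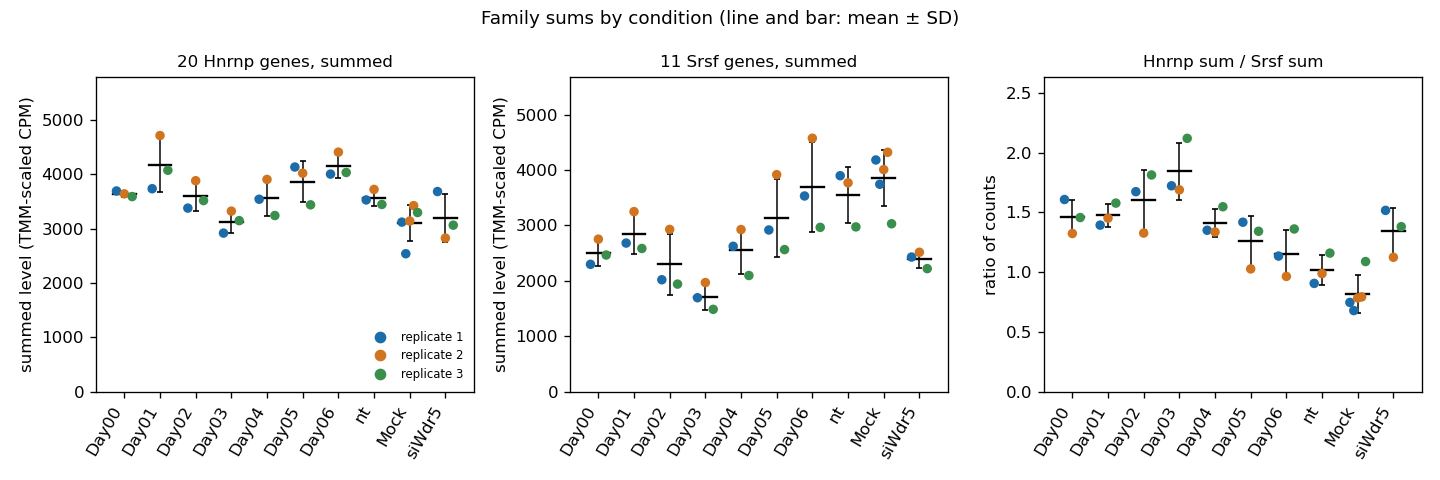
Summed level of the 20 Hnrnp genes and of the 11 Srsf genes in CPM, and the Hnrnp to Srsf ratio, for each library (dots, coloured by replicate) on Day00 to Day06 and in nt, Mock and siWdr5, with the mean (line) and SD (bar). The ratio is highest on Day03 (1.84 ± 0.239) and, of the conditions plotted, lowest in Mock (0.818 ± 0.158, n = 5).

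Across the 7 days 9 of the 21 tested genes differed at an adjusted p under 0.05 (edgeR F-test), 4 of 7 Srsf and 5 of 14 Hnrnp, which is 42.9% where the background over all tested genes was 42.5%. The share of members called is thus near the background. The SR genes were Srsf3 (adjusted p = 2.34e-13), Srsf2 (2.95e-08), Srsf7 (9.63e-08) and Srsf6 (0.000281). The hnRNP genes of smallest p were Hnrnpab (0.00133), Hnrnph1 (0.0028), Hnrnpc (0.0111) and Hnrnpm (0.0147), and the ninth call was Hnrnpl (0.0374). Without the block for the replicate 5 of the 21 were called, with Srsf6 at 0.052, Hnrnpc at 0.135, Hnrnpm at 0.0657 and Hnrnpl at 0.108. The calls of Srsf3, Srsf2 and Srsf7 held under every alternative run, whereas leaving out replicate 2 gave 0.0993 for Hnrnpab and 0.109 for Hnrnph1, leaving out replicate 3 gave 0.0702 for Srsf6 and 0.14 for Hnrnpc, and leaving out any 1 replicate gave 0.0838 to 0.218 for Hnrnpm. For Hnrnpl it was 0.184 without replicate 2 and 0.704 without replicate 3. Limma on the deposited log2 values ended the calls of Hnrnph1 (0.213), Hnrnpc (0.259), Hnrnpm (0.0748) and Hnrnpl (0.277). So did RLE size factors for Hnrnpc (0.0666), DESeq2 for Hnrnpc (0.0585) and Hnrnpl (0.051), and the weaker filter, a mean of at least 1 count per library, for Hnrnpm (0.0918) and Hnrnpl (0.0671).

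From Day00 to Day03 Srsf3 fell, and it was the only member called. Srsf3 stood at 718, 974 and 703 CPM on Day00, 734, 953 and 820 on Day01, 710, 1017 and 565 on Day02 and 297, 723 and 325 on Day03. Replicate 2 was the highest library on each of these days, so the Day03 library of replicate 2 overlapped Day00, although Srsf3 was lower on Day03 in each of the 3 replicates. Srsf3 changed by -0.88 ± 0.22 on the log2 scale (± SE, adjusted p = 0.00169), from 799 ± 152 to 448 ± 238 CPM, with 1 of 21 members called lower where the background was 5.81% of all genes, and 0 called higher where it was 5.11%. Unadjusted p was under 0.05 for 4 members, all lower, a count with no share over all genes beside it. The fitted change was below 0 for 20 of the 21, with a median of -0.53 (Hnrnp -0.49, Srsf -0.62) where all tested genes had a median of 0.01. Hnrnpc, the exception, had 0.23 ± 0.24 (adjusted p = 0.641). Without replicate 1 the adjusted p of Srsf3 was 0.052 and without replicate 3 it was 0.0871.

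From Day03 to Day06 all called members rose. Srsf2 was at 577, 307 and 343 CPM on Day03 and 964, 1392 and 859 on Day06, Srsf7 at 87.4, 90.3 and 79.2 and then 341, 524 and 225, and Srsf3 at 846, 1356 and 818 on Day06. The Day06 libraries lay above all Day03 libraries for each of these genes. The log2 changes were 1.36 ± 0.22 for Srsf2 (adjusted p = 4.07e-07), 1.19 ± 0.21 for Srsf3 (2.33e-06) and 1.96 ± 0.36 for Srsf7 (8.45e-06), and these calls held under every alternative run. Srsf7, an SR protein that also takes part in mRNA export, thus showed the largest change of the members, at 19 counts on Day03 and 85 on Day06 over 3 libraries.

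The days between showed different paths. Srsf3 was highest on Day05, at 1281, 2097 and 1134 CPM, above Day04 (807, 1033 and 602) in each replicate. Srsf2 was at 673, 678 and 479 CPM on Day04 and 723, 584 and 470 on Day05, under all its Day06 libraries. Srsf7 was at 202, 273 and 210 CPM on Day04 and 266, 451 and 335 on Day05. Srsf3 made up 25.4% of the Srsf counts on Day03, 47.2% on Day05 and 27.1% on Day06, so its share on Day06 was close to that of Day03 although its level was higher.

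The other calls from Day03 to Day06 were Srsf6, Hnrnph1 and Hnrnpab. Srsf6 was at 227, 434 and 150 CPM on Day03 and 519, 380 and 416 on Day06, which overlap, and replicate 2 was lower on Day06 (0.85 ± 0.28, adjusted p = 0.0243). Hnrnph1 was at 262, 145 and 185 CPM on Day03 and 326, 434 and 409 on Day06 (1.00 ± 0.29, 0.00984). Hnrnpab was at 262, 560 and 431 CPM on Day03 and 623, 669 and 654 on Day06 (0.63 ± 0.22, 0.0367), and the groups of Hnrnph1 and Hnrnpab did not overlap. In all 6 of 21 members were called higher where the background was 7.93%, and 0 lower where it was 8%. The fitted change was above 0 for 20 of 21 members (19 with RLE size factors), with a median of 0.72 (0.59 with RLE) where all genes had 0.01. Hnrnpc was at 0.10 ± 0.23 (adjusted p = 0.81), and at -0.03 with RLE size factors or DESeq2, so it has no direction here. In the same comparison 5 of the 6 proliferation genes tested rose, with a median of 1.99, and their part was not tested. The call of Srsf6 was lost without replicate 1 (adjusted p = 0.162) and without replicate 3 (0.531, change 0.43), that of Hnrnph1 without replicate 2 (0.102) and replicate 3 (0.202), and that of Hnrnpab without replicate 1 (0.269) and replicate 3 (0.21). RLE size factors, which shift all genes by -0.13 here, ended the calls of Srsf6 (0.0646) and Hnrnpab (0.109), as did leaving out the replicate block (0.191 and 0.1002), DESeq2 (0.099 and 0.13) and limma on the deposited log2 values (0.226 and 0.109, with Hnrnph1 at 0.0944), and RLE moved the split of all calls from 239 higher and 241 lower to 186 and 340.

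**Figure D2:**
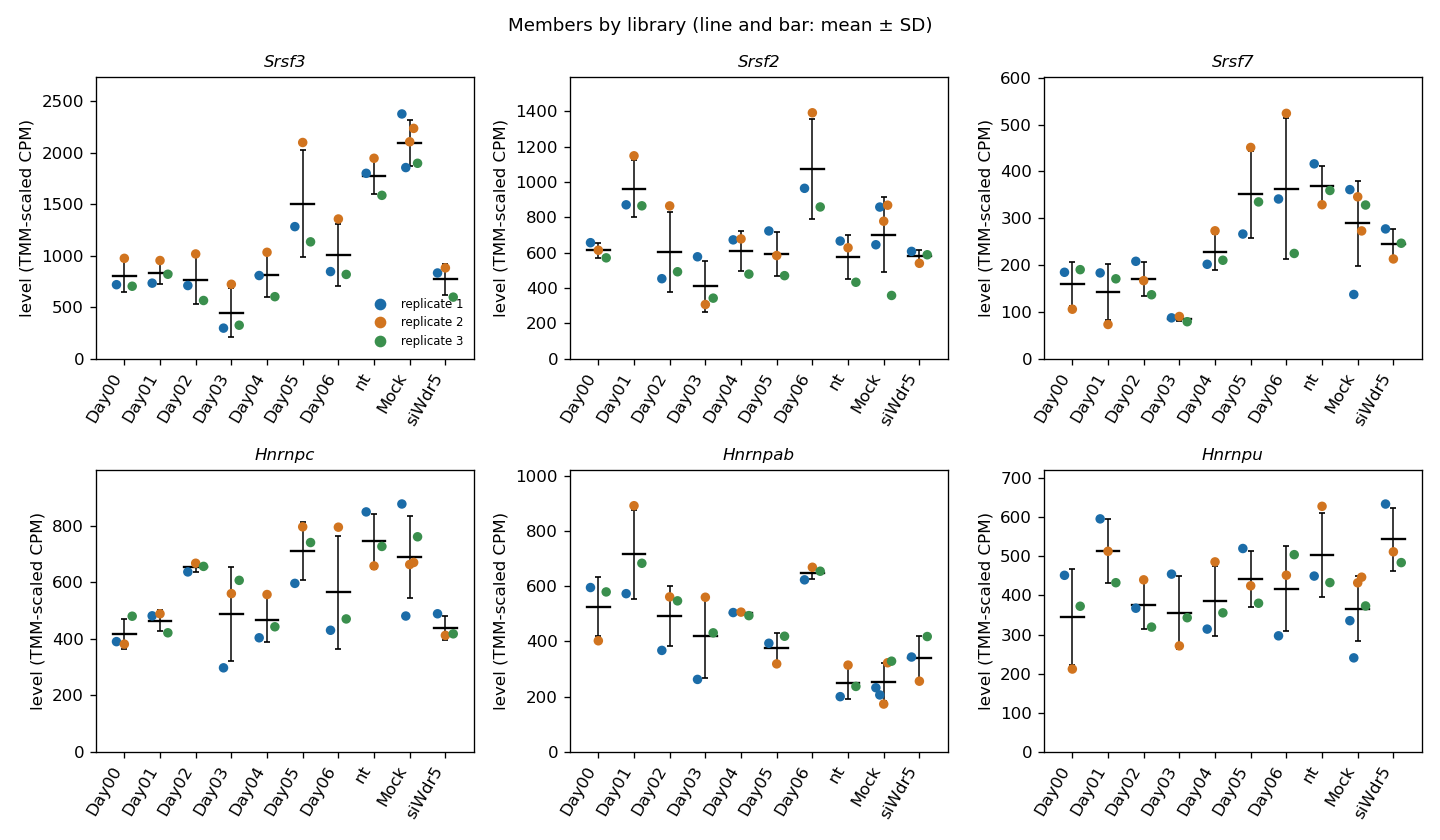
Level in CPM of Srsf3, Srsf2, Srsf7, Hnrnpc, Hnrnpab and Hnrnpu in each library (dots, coloured by replicate) on Day00 to Day06 and in nt, Mock and siWdr5, with the mean and SD. Srsf2 and Hnrnpab are high on Day06 and lower in nt, while Srsf3 is higher in nt than on Day06.

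Over the whole course from Day00 to Day06, Srsf2 and Srsf7 rose and Hnrnpr fell. Srsf2 was at 657, 614 and 571 CPM on Day00 and Srsf7 at 185, 106 and 190, all below the Day06 libraries. The changes were 0.74 ± 0.21 for Srsf2 (adjusted p = 0.00444) and 0.97 ± 0.32 for Srsf7 (0.0158). Hnrnpr, whose protein binds RNA in both nucleus and cytoplasm, went from 205, 296 and 174 CPM to 163, 108 and 68.2, with no overlap (-1.03 ± 0.40, 0.0474). Thus 2 of 21 were called higher where the background was 10.7%, and 1 lower where it was 11.5%. Srsf3 (0.30 ± 0.19, adjusted p = 0.27) and Hnrnpc (0.33 ± 0.24, 0.338) were not called. The median change was 0.27, with 17 of 21 above 0, or 13 with RLE size factors, which shift all genes by -0.16 and move the split of calls from 321 higher and 347 lower to 229 and 431. Leaving out replicate 2 ended the calls of Srsf2 (0.0792), Srsf7 (0.345, change 0.59) and Hnrnpr (0.301), leaving out replicate 3 that of Hnrnpr (0.225), DESeq2 (0.0666) and the fit with no replicate block (0.108) that of Srsf2, and RLE size factors (0.0506) and DESeq2 (0.0621) that of Srsf7. Without the block Hnrnpr was not called either (0.134), nor with the weaker filter (0.127). Limma on the deposited log2 values ended the calls of Srsf2 (0.0989) and Hnrnpr (0.311).

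Transfected cells with the non-targeting siRNA differed from the untransfected Day06 cells in 7 of 21 members, 1 higher and 6 lower, where 15.6% of all genes were called higher and 11% lower, and Srsf3 moved against the others. Srsf3 was at 1799, 1944 and 1585 CPM in nt, above all Day06 libraries (0.85 ± 0.17, adjusted p = 2.89e-05). Srsf2 was lower, at 666, 628 and 433 CPM in nt (-0.90 ± 0.21, 0.000344). Srsf11, whose protein associates with U2AF, was at 445, 633 and 334 CPM on Day06 and 333, 224 and 147 in nt (-1.01 ± 0.28, 0.00321). Srsf6 was at 300, 254 and 221 CPM in nt (-0.81 ± 0.27, 0.0182). The Srsf sum was 3690 ± 815 CPM on Day06 and 3546 ± 500 in nt, while Srsf3 made up 27.1% of the Srsf counts on Day06 and 50.3% in nt.

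Among the hnRNP genes Hnrnpab fell most clearly, to 200, 314 and 237 CPM in nt, where the Day06 libraries held 623, 669 and 654 (-1.38 ± 0.24, adjusted p = 1.34e-06), and this call held under every alternative run. Hnrnpa0, a member of the A/B group that binds AU-rich mRNA, was at 148, 181 and 307 CPM on Day06 and 66.6, 135 and 89.9 in nt (-1.24 ± 0.38, 0.00851). Hnrnpm, a regulator of exon skipping, was at 460, 380 and 286 CPM on Day06 and 216, 165 and 229 in nt (-0.78 ± 0.29, 0.0297). The groups did not overlap for any of the 7 called genes, but the share over all genes was not counted, so this adds nothing to the calls. Hnrnpc was at 430, 795 and 470 CPM on Day06 and 849, 658 and 727 in nt, which overlap (0.46 ± 0.21, 0.0954).

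With RLE size factors, for nt against Day06, 1 member was higher and 7 were lower, and all genes shifted by -0.14, which moved the split of calls over all genes from 470 higher and 332 lower to 345 and 436. Transfection, siRNA and handling cannot be told apart in this comparison. Beside it, the TMM factors were 1.24 to 1.25 on Day06 and 0.923 to 0.984 in nt, and mitochondrial counts were 16.0 to 16.6% and 22.8 to 26.3% of the total, and the part of these in the result was not tested. Leaving out replicate 3 ended the calls of Hnrnpa0 (adjusted p = 0.424, change -0.69) and Srsf6 (0.162), replicate 2 those of Hnrnpm (0.275), Srsf11 (0.13) and Srsf6 (0.0799), and replicate 1 those of Hnrnpm (0.241) and Srsf6 (0.0812). With limma on the deposited log2 values Srsf3 (0.246), Srsf6 (0.194), Hnrnpa0 (0.159) and Hnrnpm (0.0902) were not called, with the weaker filter Hnrnpm (0.163) and Srsf6 (0.0995) were not, and without the replicate block Srsf2 (0.0572), Hnrnpm (0.0575) and Srsf6 (0.132) were not.

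In Mock, which had no siRNA, edgeR called 0 of the 21 members against nt, where the background was 1.03% higher and 0.531% lower, and 0 had an unadjusted p under 0.05. Every alternative run, DESeq2 and limma included, also called 0, but DESeq2 gave an adjusted p for only 13 of the 21. With the weaker filter the split of calls over all genes turned from 31 higher and 16 lower to 12 and 54. Srsf3 was at 2374 and 1854 CPM in the Mock libraries of replicate 1, 2104 and 2234 in those of replicate 2 and 1896 in that of replicate 3 (0.21 ± 0.15, adjusted p = 0.635). Hnrnpab was at 232, 206, 173, 323 and 328 CPM, where nt held 200, 314 and 237, and Hnrnpc had a change of -0.05 (0.967). Both controls share the transfection, and the high Srsf3 and low Hnrnpab levels set against Day06 were in both.

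**Figure D3:**
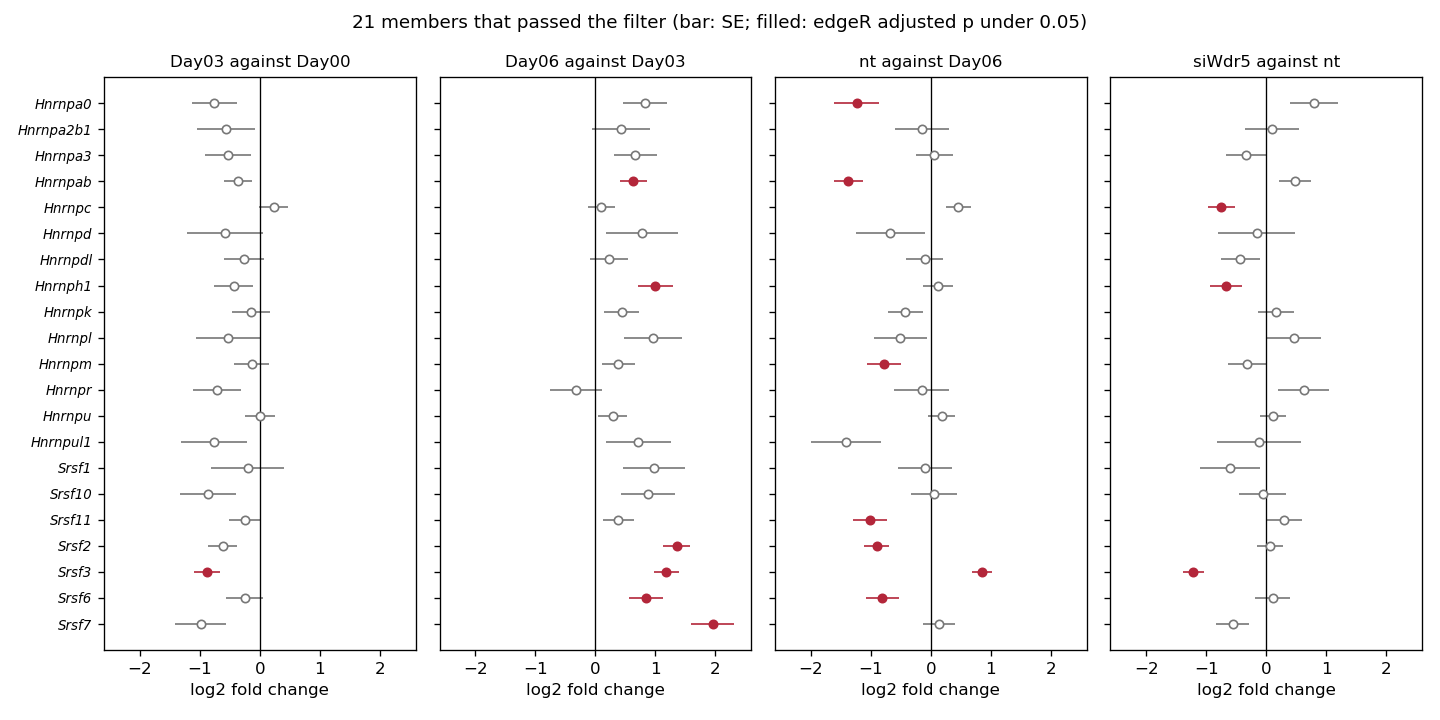
Log2 change (± SE) of the 21 tested hnRNP and SR genes for Day03 against Day00, Day06 against Day03, nt against Day06 and siWdr5 against nt; filled points have an adjusted p under 0.05 (edgeR). In the Day06 against Day03 panel 20 of 21 points lie above 0, and in the siWdr5 panel Srsf3 has the lowest value (-1.22 ± 0.17).

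The libraries labelled siWdr5, an siRNA against the shared subunit of the MLL and SET1 histone methyltransferase complexes, had the largest called change of an SR gene among the siRNAs. Srsf3 fell to 832, 881 and 598 CPM, under all nt libraries (-1.22 ± 0.17, adjusted p = 2.1e-09), and this call held in 11 of 11 alternatives. The siWdr5 level of 770 ± 151 CPM was the lowest of the 35 transfected conditions. Untransfected cells were near that level on Day00 (799 ± 152), Day01 (835 ± 110), Day02 (764 ± 230) and Day04 (814 ± 215). The Srsf sum was 2389 ± 152 CPM in siWdr5 and 3546 ± 500 in nt, and the share of Srsf3 in it was 32.1% and 50.3%. Srsf2 was at 608, 540 and 589 CPM in siWdr5, inside the range of nt, and Srsf7 at 277, 213 and 247, under nt at 416, 329 and 359 (-0.56 ± 0.28, 0.122).

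Hnrnpc fell to 489, 412 and 418 CPM in the libraries labelled siWdr5 (-0.75 ± 0.22, adjusted p = 0.00554), below all nt libraries, and Hnrnph1 to 304, 156 and 323 from 400, 479 and 417 (-0.67 ± 0.27, 0.0477). The call of Hnrnph1 was lost in 10 of 11 alternatives, and that of Hnrnpc without replicate 3 (0.0988) and with limma on the deposited log2 values (0.294). Hence 3 of 21 members were called lower where the background was 15.1%, and 0 higher where it was 12.2%. An unadjusted p under 0.05 was found for 5 members, a count with no share over all genes beside it. The median change was -0.06 with TMM and 0.12 with RLE size factors, which shift all genes by 0.17 and move the split of calls over all genes from 367 higher and 454 lower to 490 and 315, so the median gives no direction. The fibroblast genes summed to 4622 CPM in siWdr5 and 1836 in nt, and their part in these changes was not tested.

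siBard1 and siBrca1 target partners in a ubiquitin ligase that acts in DNA repair. In the libraries labelled siBard1 Hnrnpu fell, at 303, 223 and 285 CPM where nt held 450, 628 and 433 (-0.84 ± 0.25, adjusted p = 0.0123), with no overlap. Mock was at 366 ± 83.2 CPM (n = 5, range 240 to 447), lower than nt at 504 ± 108, and the siBard1 libraries overlap those of Mock. Hnrnpu was the 1 of 21 members called lower where the background was 4.78%, with 0 higher where it was 5.54%. The call was lost without replicate 2 (0.286), without replicate 3 (0.0554) and with limma on the deposited log2 values (0.332). In those labelled siBrca1 edgeR and limma called 0 members, as did DESeq2 among the 13 to which it gave an adjusted p, where the background was 2.49% higher and 1.73% lower. With the weaker filter the split of calls over all genes turned from 75 higher and 52 lower to 31 and 66. An unadjusted p under 0.05 was found for 5 members, a count with no share over all genes beside it. Hnrnpu was at 372, 228 and 353 CPM (-0.60 ± 0.26, adjusted p = 0.195). The lowest adjusted p was that of Srsf7 at 145, 274 and 177 CPM (-0.92 ± 0.32, 0.0773). Srsf3 was not called in siBard1 (0.04, adjusted p = 0.919) or siBrca1 (0.12, 0.802), nor was Hnrnpc (-0.24 ± 0.21, 0.52, and -0.51 ± 0.23, 0.222). These and all other siRNA comparisons share the 3 nt libraries.

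Over the other 30 siRNAs, 6 of 630 pairs of a member and an siRNA were called. An unadjusted p under 0.05 was found for 74 pairs, a count with no share over all genes beside it, so it shows no excess. Higher were 3 pairs, where the background over all genes was 0.749%, and lower 3, where it was 0.687%. Srsf3 rose in the libraries labelled siPou5f1, against Oct4, to 3444, 2862 and 2884 CPM (0.80 ± 0.16, adjusted p = 7.51e-05), all above nt. It fell in those labelled siEp300, against a histone acetyltransferase, to 929, 1574 and 1090 CPM (-0.57 ± 0.16, 0.0161) and in siPrkdc, against the DNA-dependent protein kinase, to 962, 1180 and 1235 (-0.60 ± 0.17, 0.0348). None of these 3 groups overlapped nt. The siPou5f1 libraries had TMM factors of 1.11, 0.957 and 0.852 and held 15.1, 24.1 and 21.3% mitochondrial counts (replicates 1, 2 and 3). In nt these were 0.923 to 0.984 and 22.8 to 26.3%, and their part was not tested. The call in siPou5f1 was lost with limma on the deposited values (0.693), that in siEp300 without replicate 1 (0.28) and replicate 3 (0.161), and that in siPrkdc without any 1 of the 3 replicates, with RLE size factors (0.0852) and with all libraries of the count table (0.0869). Limma also ended the calls in siEp300 (0.999) and siPrkdc (0.194), and without the replicate block the adjusted p was 0.199 in siEp300 and 0.356 in siPrkdc.

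Hnrnpu fell in the libraries labelled siPou5f1, to 270, 260 and 237 CPM (-0.96 ± 0.27, adjusted p = 0.0133), and the call was lost without replicate 1 (0.0506), replicate 2 (0.202) and replicate 3 (0.128), without the block (0.051) and with limma (0.693). These libraries overlap those of Mock, which spanned 240 to 447 CPM. Hnrnpab rose in those labelled siPrkdc, to 855, 570 and 385 CPM (1.14 ± 0.26, 0.00349), and in siTead2, against a partner of YAP, to 598, 623 and 563 (1.24 ± 0.26, 0.00205). Both lay above the nt libraries. The call in siPrkdc was lost without replicate 1 (0.397) and with limma (0.126), and that in siTead2 without replicate 1 (0.0578) and replicate 2 (0.103). The ratio of the Hnrnp to the Srsf sum was 1.45 ± 0.0697 in siPrkdc and 0.708 ± 0.0941 in siPou5f1, with 1.02 ± 0.129 in nt.

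Tested over the 33 siRNAs and nt together, 11 of the 21 members varied (52.4%, 3 of 7 Srsf and 8 of 14 Hnrnp), where the background was 44.8%. Srsf3 had the smallest adjusted p (1.8e-26), followed by Hnrnpu (2.83e-05), Hnrnpa2b1 (0.000577) and Hnrnpd (0.00239). Hnrnpab (0.00785), Srsf2 (0.0101), Hnrnpa3 (0.0101) and Hnrnpul1 (0.0115) came next. The mean of Hnrnpu was 256 ± 17.2 CPM in siPou5f1 and 638 ± 197 in siPrkdc. Hnrnpa2b1, whose protein also sorts RNA into exosomes, went from 72.3 ± 24.9 in siPhf1 to 232 ± 155 in siEny2, and Srsf2 from 379 ± 76.3 in siPrmt7 to 908 ± 304 in siBptf. Hnrnpd (AUF1), which marks AU-rich mRNA for decay, had only 1 count in the siTdrd3 libraries and 22 in those of siPrkdc, so its order rests on few counts. The call of Srsf3 held under every alternative run. Without replicate 2 the adjusted p was 0.155 for Hnrnpu, 0.148 for Hnrnpd, 0.256 for Srsf2, 0.21 for Hnrnpa3, 0.0678 for Hnrnpul1 and 0.149 for Hnrnpab. Without replicate 1 it was 0.41 for Hnrnpab, and without replicate 3 it was 0.0541 for Hnrnpa2b1 and 0.212 for Hnrnpa3. Limma on the deposited log2 values called only Srsf3, Hnrnpd and Hnrnpul1, with Hnrnpu at 0.171, Hnrnpa2b1 at 0.0944, Hnrnpab at 0.08, Srsf2 at 0.162 and Hnrnpa3 at 0.304. Without the replicate block Srsf2 (0.711), Hnrnpa2b1 (0.135) and Hnrnpa3 (0.121) were not called, and with the weaker filter Srsf2 (0.0997) was not. The other 3 calls, Srsf7, Hnrnpc and Hnrnpdl, were lost with limma, without the block and without replicate 3.

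**Figure D4:**
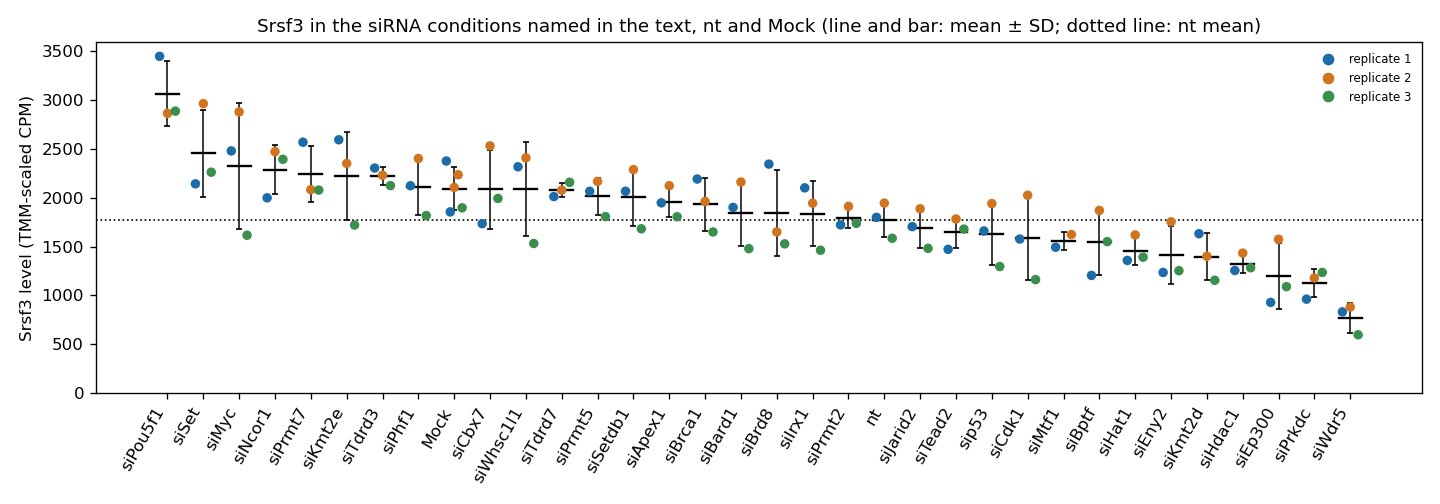
Srsf3 in CPM in each library (dots) of the siRNA conditions named above, nt and Mock, ordered by the mean; the dotted line marks the nt mean of 1776. siPou5f1 (3063 ± 330) is at the top and siWdr5 (770 ± 151) at the bottom.

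The order of Srsf3 over the 35 transfected conditions began with siPou5f1 at 3063 ± 330 CPM, then siSet at 2454, siMyc at 2323 and siNcor1 at 2287. At the low end were siHdac1 at 1324, siEp300 at 1198, siPrkdc at 1126 and siWdr5 at 770. The mean was above nt in 20 of the 33 siRNAs and below it in 13, and 12 differed from nt at an unadjusted p under 0.05, of which 1 was called higher and 3 lower. Neighbours in this order were not tested against each other, and only the ends stand clear of the nt libraries by an adjusted p.

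Other genes of the splicing machinery were counted from lists by role, beside the share of all tested genes called. A list of hnRNP and other RNA-binding proteins under other symbols had 12 tested genes, among them Fubp1, Celf1, Rbm3 and Elavl1. From Day00 to Day06, 3 of these 12 rose and 0 fell (10.7% and 11.5% of all genes). They were Fubp1 (1.60 ± 0.39, adjusted p = 0.000704), Celf1 (0.97 ± 0.32, 0.0184) and the poly(C)-binding Pcbp2 (0.57 ± 0.20, 0.0267). In nt against Day06, 1 rose and 4 fell (15.6% and 11% of all genes), with Pcbp2 at -1.18 ± 0.21 (2.16e-06), Pcbp1 at -0.94 ± 0.20 (6.85e-05) and Celf1 at -1.11 ± 0.32 (0.00535). Of 21 SR-related proteins and SR kinases, 0 were called from Day00 to Day06, and the kinase Srpk1, which phosphorylates SR proteins, was at 1.39 ± 0.57 (0.0646). It was the 1 of the 21 called higher on Day03 against Day00 (1.67 ± 0.57, 0.037), where 5.11% of all genes were. This comparison was not planned for these lists.

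Of 16 tested Sm and U snRNP proteins only Lsm7 was called from Day00 to Day06 (1.36 ± 0.52, adjusted p = 0.0443), where 10.7% of all genes rose. From Day03 to Day06, 3 rose and 0 fell (7.93% and 8% of all genes), with a median of 0.81. That comparison was also not planned for these lists. In nt against Day06, 3 rose and 0 fell (15.6% and 11% of all genes), among them Snrpd1 (1.02 ± 0.23, adjusted p = 0.00033), a core Sm protein. In the libraries labelled siWdr5, 0 rose and 3 fell (12.2% and 15.1% of all genes), which were Snrpd1 (-1.29 ± 0.24, 7.03e-06), Snrpe (-2.50 ± 0.54, 0.000102) and Snrnp25 (-2.02 ± 0.58, 0.00454). Of 24 tested U2 and catalytic core proteins, 3 rose and 2 fell from Day00 to Day06 (10.7% and 11.5% of all genes), with the exon junction protein Rbm8a at 2.85 ± 0.71 (0.000924) and the branch point protein Sf1 at 0.98 ± 0.28 (0.00563). In nt against Day06, 3 rose and 5 fell (15.6% and 11% of all genes), with Sf1 at -1.67 ± 0.30 (2.57e-06) and the helicase Ddx5 at -1.19 ± 0.24 (2.65e-05). With the same siWdr5 shares over all genes, 3 rose and 3 fell among the 21 SR-related genes, with Bclaf1 at -0.76 ± 0.20 (0.00196), and 3 rose and 2 fell among the core proteins, with Prpf38a at -1.93 ± 0.46 (0.000516) and Ddx5 at 0.84 ± 0.25 (0.00562).

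Of 5 tested tissue-specific regulators, 0 rose and 3 fell from Day00 to Day06, where 10.7% of all genes rose and 11.5% fell. These were Mbnl2 (-2.10 ± 0.28, adjusted p = 6.47e-11) and Mbnl1 (-0.63 ± 0.25, 0.0496), which promote splicing forms of differentiated cells, and Celf2 (-1.38 ± 0.52, 0.0378). In nt against Day06, Rbfox2 (-1.36 ± 0.45, 0.015) and Mbnl1 (-0.82 ± 0.29, 0.0242) fell, where 11% of all genes did. Mbnl1 was the 1 of 5 called higher in the libraries labelled siWdr5 against nt (0.78 ± 0.29, 0.0308), where 12.2% of all genes were. Fibroblast markers moved in the same comparisons, with 2 of 10 tested genes higher and 6 lower on Day06 against Day00, and their part was not tested.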

How the data were processed

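CEL-Seq2 libraries were analysed from 3 sequenced pools. To make the deposited counts, the authors aligned reads to mm10 (Bowtie2), collapsed UMIs with the CEL-Seq2 pipeline and assigned them to GENCODE vM13 genes, with no normalization. The second deposited table holds log2 values, which the authors obtained as log2 CPM scaled by size factors with the batch regressed out, so each gene lies around 0. The condition and replicate of each library were read from its column name, and the Mock columns of a replicate share a name. Libraries under 20000 counts were left out (6403 and 7981 counts), leaving 127 of 129. 1 siRNA condition entered the fits and counts but is not reported here by name. The Hnrnp and Srsf members and the gene lists were chosen with earlier results of these data known.

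Counts were fitted with edgeR 4.0.16 (R 4.3.3) by the quasi-likelihood method, with TMM scaling, filterByExpr by condition and the replicate as a block, over all libraries (dispersion 0.0158, 83 residual degrees of freedom, TMM factors 0.825 to 1.39). The replicate number marks the sequenced pool that the libraries shared. The study regressed a batch, which it does not name. Deviations from condition means correlated with a median of 0.0981 within a replicate and -0.0685 between replicates. Adjusted p is Benjamini-Hochberg over the 3013 genes, with calls under 0.05. CPM divides a count by the library's total over tested genes after TMM scaling. Family sums and ratios include all members and have no test. Counts at an unadjusted p under 0.05, and remarks on groups that do not overlap, have no share over all genes beside them. They show no excess among the members. Members named with values were those called (at most 8 per direction), the 8 of smallest p in each F-test, and the most counted gene of each family (Hnrnpc and Srsf3), and at most 3 genes per other list. Srsf7 and Hnrnpu were named where not called after their values were seen, as were the values on the days between. Alternatives were RLE size factors, DESeq2 1.42.0, limma 3.58.1 on the deposited log2 values, no block, a weaker filter, all 129 libraries, the compared conditions alone, nt with Mock as the control and each replicate left out. Scripts were tested on simulated counts. Copies were found with blastn 2.17.0. Sequences are from RefSeq (GRCm38.p6), positions from GENCODE vM21.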

Additional observations from a re-analysis of the deposited data

Results flagged for a closer look

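In Mock, the ratio of the Hnrnp to the Srsf sum was 1.09 in the single library of replicate 3 and 0.679 to 0.793 in the other 4. It stood apart from the others by Dixon's test (gap over range 0.721). Dixon's test was run on 24 quantities in Mock, and chance flags about 1 in 20 groups. Replicate 3 also held the highest ratio in 25 of the 41 conditions with all 3 replicates (median 1.13, with 0.978 and 0.976 in replicates 1 and 2), and nt was at 1.16 in replicate 3 and 0.906 and 0.988 in the others, and the library is the only one of Mock from replicate 3. Dixon's test takes no account of the replicate, and its part was not tested.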

How the results depend on the processing

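No call of a named member changed direction under the alternatives, while Hnrnpc, not called for Day06 against Day03 at 0.10, was at -0.03 with RLE or DESeq2. Of 152 alternatives for counts and sums 114 stayed near the main value and 38 moved, and of 470 for named members 334 kept and 136 lost the call. Members called, main value first: over the time course 9, and 5 with no replicate block; Day03 against Day00 1, and 2 with limma or the compared conditions alone; Day06 against Day00 3, and 1 with DESeq2, limma or no block; nt against Day06 7, and 3 with limma and 4 with no block; siWdr5 3, and 1 with limma; siBard1 1, and 0 with limma and 2 with the compared conditions alone or with nt and Mock as the control; the other 30 siRNAs 6, and 11 with DESeq2, 2 with limma, 3 with no block and 17 with nt and Mock as the control; over the siRNA conditions 11, and 3 with limma and 5 with no block. Without 1 replicate these counts ranged 5 to 8 over the time course, 0 to 1 for Day03 against Day00, 1 to 4 for Day06 against Day00, 3 to 5 for Day06 against Day03 (main 6), 5 to 5 for nt against Day06, 1 to 2 for siWdr5, 0 to 1 for siBard1, 1 to 3 for the other 30 siRNAs and 4 to 9 over the siRNA conditions. Leaving out the replicate block changed no other count by over 1.5 times. The Hnrnp sum on Day03 was 3131 CPM, 3637 with RLE and 2767 as CPM of all counts, in nt 3567, 3386 and 2959. The Srsf sum on Day03 was 1717 CPM and 2000.1 with RLE, in nt 3546 and 2934 as CPM of all counts. The cause of these moves was not tested. Depth limits the 10 members under the filter, which had too few counts to enter the edgeR test.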

Other observations

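Hnrnph3, a member under the filter with 63 counts in all libraries, had 15 of them on Day03, at 7, 3 and 5 counts in replicates 1, 2 and 3, and 1 on Day00, 3 on Day06 and 0 in nt. It was chosen after its values were seen and has no test. Day03 was thus the day of its highest count, where the summed Hnrnp level was lowest.

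The nt condition had the lowest mean Hnrnpab level of the 33 siRNAs and nt, at 250 ± 58.3 CPM (n = 3), and Mock was at 252 ± 70.0 (n = 5). Every comparison of Hnrnpab with nt shares these 3 libraries.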
